A study of Mus musculus with 25 samples.

Results

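The genes described here are 10 acute-phase proteins of mouse liver: the serum amyloid A genes Saa1, Saa2, Saa3 and Saa4, the orosomucoid genes Orm1 and Orm2, lipocalin 2 (Lcn2), haptoglobin (Hp), C-reactive protein (Crp) and serum amyloid P (Apcs). They were chosen by name, each symbol was joined to its Ensembl identifier in the count files, and all 10 were found among the 41388 identifiers. The data are RNA sequencing of whole liver from 25 C57B/6J mice aged 20 weeks, 1 library per mouse, after a study of 12 weeks. Every mouse had received an AAV8 virus, which carried either an empty vector (EV) or NAMPT, a rate-limiting enzyme of NAD synthesis from nicotinamide, and the paper describes the NAMPT vector as driven by the thyroxine binding globulin promoter, which is active in hepatocytes. WT mice were littermates that carried floxed Sirt1 without Cre, and SIRT1 LKO mice carried floxed Sirt1 with an Albumin-cre transgene, so the deletion is meant for hepatocytes and leaves the other liver cells with the gene. The groups were chow WT EV (n = 3), Western diet (WD) WT EV (n = 6), WD WT NAMPT (n = 6), WD LKO EV (n = 5) and WD LKO NAMPT (n = 5). The question asked of these genes was how the diet, the NAMPT vector and the SIRT1 genotype moved the transcripts of the liver's inflammatory secreted proteins.

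Acute-phase proteins are plasma proteins that hepatocytes make in larger or smaller amounts during infection, injury and inflammation. Interleukin 6 acts on hepatocytes through gp130 and STAT3, while interleukin 1 and TNF act through NF-kB and C/EBP factors, and both arms together set the strongest responders. Serum amyloid A1 and A2 travel on high-density lipoprotein and are the classical strong responders, whereas serum amyloid A4 is made at a steady level. Serum amyloid A3 is made to a large extent outside hepatocytes, by macrophages and adipocytes among others. Orosomucoid binds small hydrophobic molecules, lipocalin 2 binds bacterial siderophores and withholds iron, and haptoglobin captures free haemoglobin. C-reactive protein and serum amyloid P are pentraxins, and in mice it is serum amyloid P rather than C-reactive protein that serves as the more responsive of the pair.

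The serum amyloid A genes lie side by side on chromosome 7 (GRCm38). Saa3 (ENSMUSG00000040026) spans chr7:46711998-46715676, Saa4 (ENSMUSG00000040017) spans chr7:46728017-46732543 and Saa1 (ENSMUSG00000074115) spans chr7:46740501-46742980, all on the minus strand, and Saa2 (ENSMUSG00000057465) spans chr7:46751833-46754314 on the plus strand. Orm1 (ENSMUSG00000039196, chr4:63344560-63348163) and Orm2 (ENSMUSG00000061540, chr4:63362449-63365878) are neighbours on the plus strand of chromosome 4. Lcn2 (ENSMUSG00000026822) is at chr2:32384633-32387797 and Hp (ENSMUSG00000031722) at chr8:109575130-109579172, both on the minus strand. The pentraxin genes Crp (ENSMUSG00000037942, chr1:172698056-172699966, plus strand) and Apcs (ENSMUSG00000026542, chr1:172893962-172895054, minus strand) share a stretch of chromosome 1. Reads counted for these genes fell on their exons, which cover between 531 bases (Saa3) and 2302 bases (Lcn2) and overlap no exon of another gene. Close copies limit the split between neighbours, since 14.8% of the 50-base words of Saa1 exons and 12.6% of those of Saa2 also occur in another gene, chiefly in each other. For Orm1 and Orm2 the shares were 20.4% and 22.7%, and reads that cover only such words were not counted for either gene.

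The 250 bases before the transcription start of Saa1, Saa2, Saa3, Orm2 and Lcn2 are shown because the levels of these 5 genes rose and fell together between livers of a group (r between 0.74 and 0.96 over their pairs, as a description), and because the Saa1 and Saa2 windows are near copies (238 identical and 11 different aligned bases with 2 gap positions, 95.6% identity). The sequences are those of RefSeq (GRCm38.p6), written 5′ to 3′ on the gene's strand. For Lcn2 the RefSeq start lies inside the gene span given above, which ends at 32387797. The Lcn2 window, from 32387740, therefore overlaps that span at its 3′ end. Capitals mark matches to the letters TTNNGNAA on either strand, a loose form of the C/EBP core.
Saa1, chr7:46742981-46743230, minus strand: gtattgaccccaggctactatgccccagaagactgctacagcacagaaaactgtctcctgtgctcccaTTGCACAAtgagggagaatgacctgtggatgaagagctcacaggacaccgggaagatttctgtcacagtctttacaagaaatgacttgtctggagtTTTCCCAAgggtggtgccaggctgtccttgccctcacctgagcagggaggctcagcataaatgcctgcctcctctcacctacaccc
Saa2, chr7:46751583-46751832, plus strand: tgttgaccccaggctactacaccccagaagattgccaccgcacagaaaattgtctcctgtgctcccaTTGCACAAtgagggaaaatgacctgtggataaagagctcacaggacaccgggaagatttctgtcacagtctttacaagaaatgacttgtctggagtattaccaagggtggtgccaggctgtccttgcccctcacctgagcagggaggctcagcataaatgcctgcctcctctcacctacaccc
Saa3, chr7:46715677-46715926, minus strand: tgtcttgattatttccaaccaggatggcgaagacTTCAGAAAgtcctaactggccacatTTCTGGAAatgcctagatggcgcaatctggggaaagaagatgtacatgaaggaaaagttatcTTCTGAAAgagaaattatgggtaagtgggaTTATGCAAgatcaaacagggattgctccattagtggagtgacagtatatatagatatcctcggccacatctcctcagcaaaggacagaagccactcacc
Orm2, chr4:63362199-63362448, plus strand: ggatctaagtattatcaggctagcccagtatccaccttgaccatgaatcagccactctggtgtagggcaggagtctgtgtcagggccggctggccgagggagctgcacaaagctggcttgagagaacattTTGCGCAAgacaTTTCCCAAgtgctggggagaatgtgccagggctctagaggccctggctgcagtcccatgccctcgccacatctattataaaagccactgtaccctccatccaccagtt
Lcn2, chr2:32387740-32387989, minus strand: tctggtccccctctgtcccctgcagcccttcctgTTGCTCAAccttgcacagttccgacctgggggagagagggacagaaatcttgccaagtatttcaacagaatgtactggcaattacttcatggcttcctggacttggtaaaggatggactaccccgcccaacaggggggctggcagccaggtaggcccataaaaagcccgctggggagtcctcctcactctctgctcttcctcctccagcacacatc

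The Saa1 window held 2 such matches, of which TTGCACAA also stands in the Saa2 window, while the other, TTTCCCAA, has no match at that place in Saa2. Orm2 held the palindromic TTGCGCAA and, 4 bases further, TTTCCCAA. Saa3 held 4 matches and Lcn2 held 1. Windows were found for 8 of the 10 genes, not for Orm1 and Hp. At least 1 match to the C/EBP letters was present in 7 of the 8, beside 36.9% of 32841 promoter windows of the same length. The letters GGGNN followed at once by TTNCC, a form of the NF-kB site, were in 0 of the 8 windows and in 4.11% of all, and TTCNNNGAA, a form of the STAT site, was in 1 (Apcs) and in 7.02% of all. Both strands were searched, no match of one motif overlapped a match of another, and a match describes the letters only.

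Libraries held between 20166175 and 32937326 gene counts, and the genes described here had at least 29 counts in every library. Expression is given as CPM, the read count scaled to library size, after TMM normalisation, and differences between groups as log2 ratios from the fit with their SE. Hepatocyte markers were present in every library, with a summed level of 8 genes between 46220 and 84660 CPM. Sirt1 was at 8.86 ± 0.573 CPM (SD) in the 6 WD WT EV livers and at 8.57 ± 1.34 CPM (SD) in the 5 WD LKO EV livers, a log2 ratio of -0.07 ± 0.10 (SE, limma adjusted p = 0.99). Under the NAMPT vector it was at 9.82 ± 1.36 CPM in LKO and 8.58 ± 0.617 CPM in WT (SD, log2 ratio 0.19 ± 0.11, SE, limma adjusted p = 0.237), with 3 of 5 libraries labelled LKO above all 6 labelled WT. The counts over the whole gene therefore do not show the deletion, and every direction for libraries labelled LKO rests on that label. The exon removed is not given in the sources used here. Nampt was at 47.4 ± 6.46 CPM in WD WT EV and at 59.5 ± 10.6 CPM in WD WT NAMPT (SD, 6 livers each), a log2 ratio of 0.34 ± 0.16 (SE, limma adjusted p = 0.144), and the corresponding LKO value was 0.41 ± 0.16 (SE, limma adjusted p = 0.403). Livers overlapped, at 38.3 to 54.1 CPM in WD WT EV and 46.8 to 77.8 CPM in WD WT NAMPT. In LKO they ran from 46.0 to 75.6 CPM with EV and from 53.9 to 127 CPM with NAMPT. Nampt counts therefore do not separate the vectors, and every direction with NAMPT rests on the vector named in the titles. WD WT NAMPT replicate 6 was the lowest of its group for 6 of the 10 genes, although a search for single outlying livers marked it for 0 of them. That search used CPM, where a low liver stands out less than on a log scale, so it does not settle whether this library is an outlier. Replicate 6 received the lowest quality weight of the 25 libraries in the fit (0.336), and its Nampt level was 59.9 CPM. Counts of called genes for comparisons with that group are also given without it, as a description. It was picked partly for its low values in these genes, and leaving it out can itself raise the calls with NAMPT.

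Per length of exon, Hp was the most abundant of the 10 genes, with a median over 25 libraries of 1197 CPM per kilobase. Orm1 followed at 718 CPM per kilobase, then Saa1 (179), Crp (166), Saa4 (122), Saa2 (94.5), Orm2 (42.4), Apcs (38.2), Lcn2 (21.2) and Saa3 (14.2). For Lcn2 the length used was 2302 bases, while the protein-coding transcript within it holds only 866 different 50-base words. The rank of Lcn2 per length may therefore be too low. Hp and Orm1 came first in every group, but the order of the others depended on the group. On chow, Crp (175 ± 9.62 CPM per kilobase, SD, n = 3) and Saa4 (113 ± 23.9) had higher means than Saa1 (48.2 ± 19.6), Apcs (42.8 ± 1.14), Saa2 (12.1 ± 5.24) and Lcn2 (1.304 ± 0.55). In WD WT NAMPT the means of Saa1 (393 ± 221 CPM per kilobase, SD, n = 6) and Saa2 (199 ± 121) were above those of Crp (136 ± 35.7) and Saa4 (130.4 ± 39.1), and that of Lcn2 (63.4 ± 53.9) above that of Apcs (38.4 ± 15.9), although the libraries of these genes overlapped. The order by how much a gene varied was different. The highest library exceeded the lowest 187-fold for Lcn2, 38.1-fold for Saa2, 27.5-fold for Saa3, 20.8-fold for Saa1 and 7.77-fold for Orm2, but by 3.60-fold or less for Apcs, Hp, Saa4, Crp and Orm1. The 5 variable genes were at their highest in a WD WT NAMPT library in each case, and 4 of them were at their lowest in chow WT EV replicate 1.

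**Figure D1:**
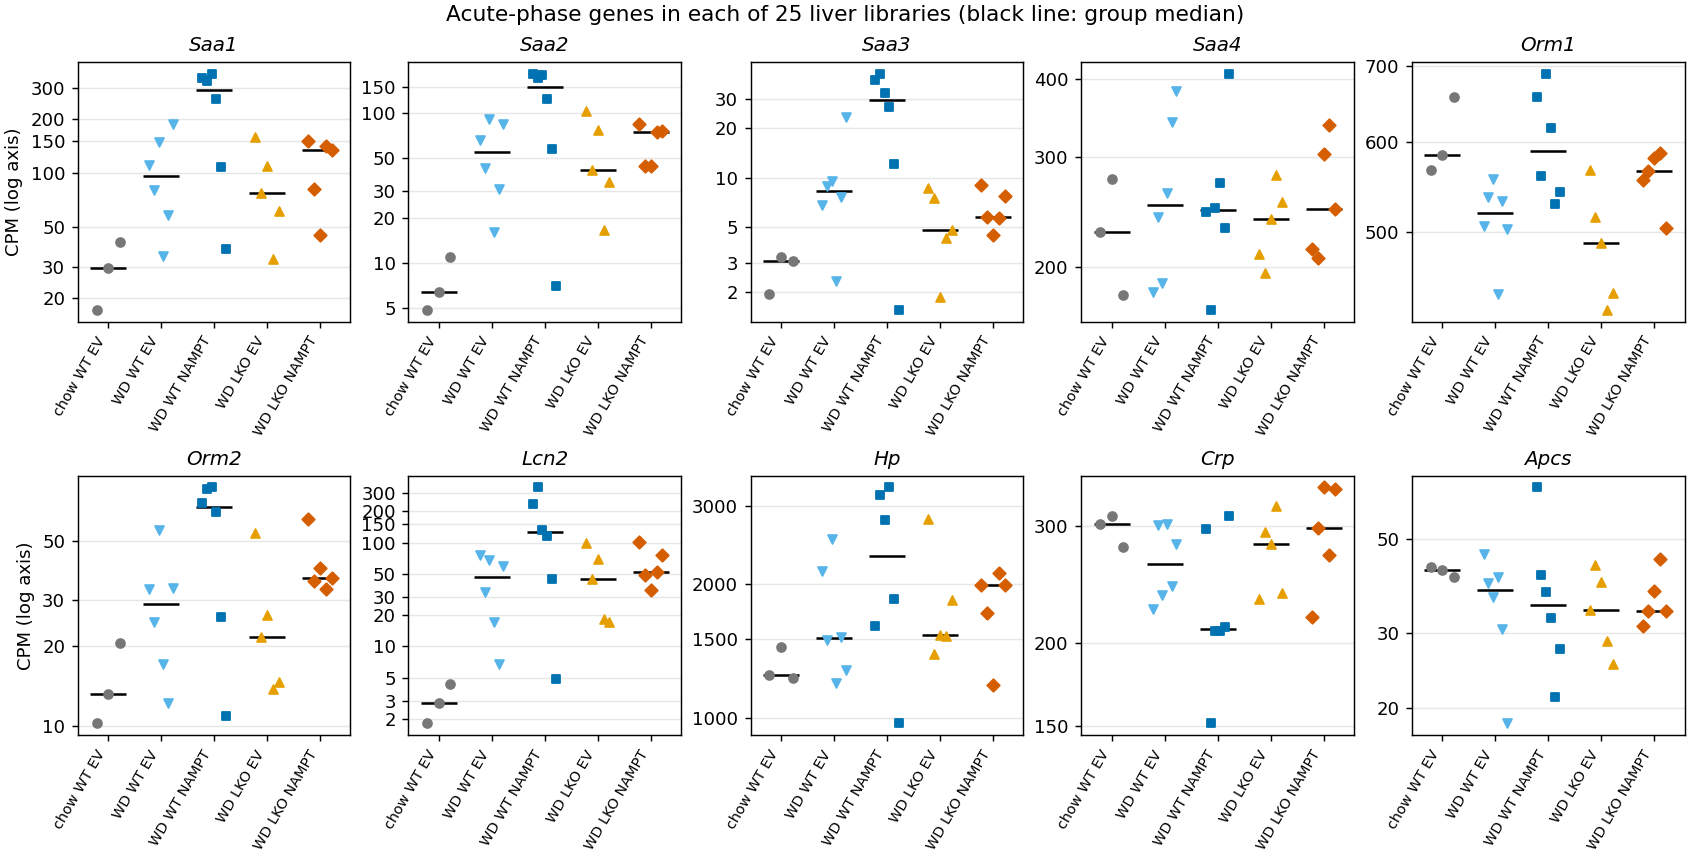
Each panel plots 1 gene, with TMM-scaled CPM on a log axis against the 5 groups; points are libraries and the black line is the group median. Saa1, Saa2, Saa3, Orm2 and Lcn2 span the widest ranges, with 4 WD WT NAMPT libraries at the top and 1 near the chow libraries, whereas Apcs, Hp, Saa4, Crp and Orm1 vary by 3.60-fold or less.

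Transcripts of serum amyloid A1 and A2 and of lipocalin 2 were higher on Western diet than on chow in WT EV liver. Of the 10 genes, 3 were called and all 3 were higher, beside 22% of the 14065 genes tested that were called in either direction and 10.1% that were called higher. The median log2 ratio of the 10 genes was 0.65, against -0.005 over all genes. In bulk liver, more cells of a type and more RNA per cell cannot be told apart.

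Lcn2 was at 1.82, 2.85 and 4.34 CPM in the 3 chow livers and between 6.82 and 76.6 CPM in the 6 WD WT EV livers, with a median of 46.4 CPM. The groups did not overlap. The mean was 3.003 ± 1.27 CPM (SD, n = 3) on chow and 43.6 ± 28.5 CPM (SD, n = 6) on WD, and the log2 ratio was 3.70 ± 1.14 (SE, adjusted p = 0.0222), or 12.97-fold. Saa2 was at 4.84, 6.32 and 10.97 CPM on chow and between 16.2 and 92.3 CPM on WD (median 54.8 CPM), again without overlap, and its log2 ratio was 2.92 ± 0.72 (SE, adjusted p = 0.00524), or 7.54-fold. Saa1 was at 17.2, 29.3 and 41.0 CPM on chow and between 34.2 and 188 CPM on WD (median 95.7 CPM). The lowest WD liver lay inside the chow range, and the log2 ratio was 1.79 ± 0.45 (SE, adjusted p = 0.00622), or 3.47-fold.

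Saa3 and Orm2 had log2 ratios of 1.54 ± 0.75 (SE, adjusted p = 0.14) and 1.03 ± 0.43 (SE, adjusted p = 0.0876) and did not pass the test. Their levels went from 2.77 ± 0.725 to 9.76 ± 7.15 CPM and from 14.7 ± 5.35 to 29.3 ± 15.2 CPM (SD, n = 3 and 6). Orm1, more abundant than Orm2, was lower in all 6 WD livers (441 to 557 CPM) than in the 3 chow livers (567, 584 and 657 CPM), with a log2 ratio of -0.19 ± 0.09 (SE, adjusted p = 0.119). Lcn2, Saa2 and Orm1 were the 3 of 10 genes whose groups did not overlap, beside 16.1% of all genes tested. The remaining log2 ratios were 0.04 for Saa4, 0.28 for Hp, -0.18 for Crp and -0.26 for Apcs, with adjusted p between 0.311 and 0.904.

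The calls on diet rested on 3 chow livers. Without chow replicate 1 or without chow replicate 2, 0 of 10 genes were called by limma (4 and 2 at an unadjusted p under 0.05), where the share of all genes called was also lower, at 6.89% and 5.95%, with log2 ratios of 3.22 and 3.54 for Lcn2, 2.46 and 2.66 for Saa2, and 1.32 and 1.71 for Saa1. The edgeR quasi-likelihood test called Saa2 and Lcn2, and DESeq2 called Saa1, Saa2, Saa3 and Lcn2, while limma called Saa2 alone with no filter on low counts and 0 without sample quality weights (4 at an unadjusted p under 0.05). Of all genes, 9.4%, 12.4%, 6.77% and 8.54% were called in these 4 fits.

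The ratio of Saa2 to Saa1 CPM, noticed after the values were seen and given without a test, was 0.281, 0.216 and 0.268 in the 3 chow livers. It was between 0.456 and 0.616 in WD WT EV (median 0.536), between 0.501 and 0.704 in WD LKO EV (median 0.560) and between 0.489 and 0.540 in 5 of 6 WD WT NAMPT livers. The exceptions were WD WT NAMPT replicate 6 at 0.185 and WD LKO NAMPT replicate 3 at 0.994, beside 0.533 to 0.566 in the other WD LKO NAMPT livers. Apart from these 2 libraries, the ratio stayed between 0.456 and 0.704 on WD while Saa1 itself ranged from 32.9 to 358 CPM. Words shared by the pair of genes leave part of their reads uncounted in both.

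**Figure D2:**
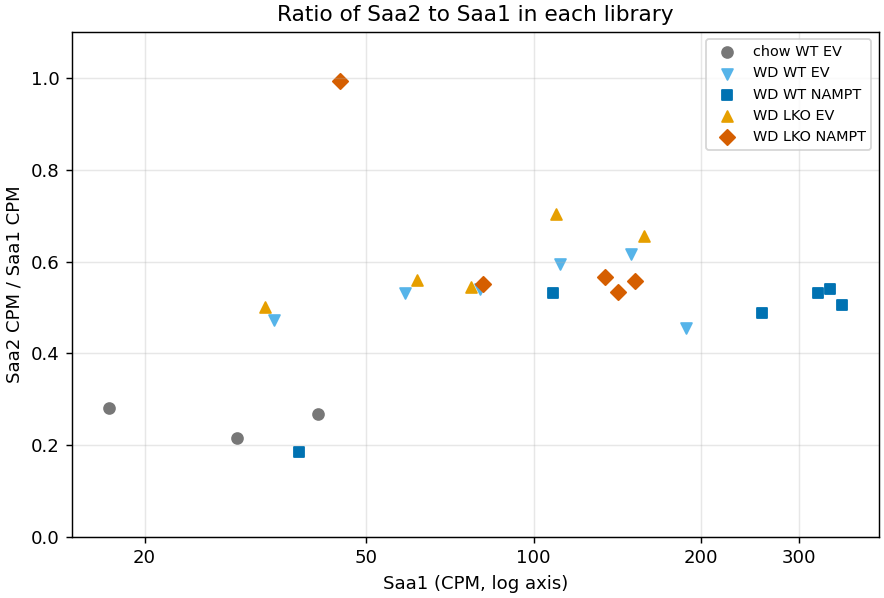
Each point is 1 library, with Saa1 CPM on a log horizontal axis and the ratio of Saa2 to Saa1 CPM on the vertical axis. The 3 chow libraries (0.216 to 0.281) and WD WT NAMPT replicate 6 (0.185) lie below the other WD libraries, and WD LKO NAMPT replicate 3 lies above them at 0.994.

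In WT liver on Western diet, the NAMPT vector went with higher Saa1, Saa3, Orm1 and Orm2. These 4 of 10 genes were called, all higher, beside 13.4% of all genes called and 7.67% called higher. The split of all called genes depended on the scaling, with 1079 higher and 811 lower as reported, 1214 and 594 with upper-quartile scaling, and 2010 and 271 with library size only. The median log2 ratio of the 10 genes was 0.84, against 0.004 over all genes. The WD WT EV livers are shared with the diet comparison and the WD WT NAMPT livers with the comparison of genotypes under NAMPT, so these comparisons are not independent of each other. All adjusted p-values of the 4 calls lay between 0.0281 and 0.0482, near the threshold of 0.05.

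In the WD WT NAMPT livers, replicates 1 to 6 had Saa1 at 341, 325, 358, 258, 108.5 and 37.9 CPM, and the 6 WD WT EV livers were between 34.2 and 188 CPM. The first 4 of these exceeded every WD WT EV liver, and the last was within the chow range. The mean was 104 ± 57.7 CPM with EV and 238 ± 134 CPM with NAMPT (SD, n = 6 in both groups), and the log2 ratio was 1.37 ± 0.44 (SE, adjusted p = 0.0394), or 2.59-fold. Saa3 was at 39.3, 43.0, 32.9, 26.97, 12.04 and 1.56 CPM with NAMPT, against 2.34 to 23.4 CPM with EV (median 8.24 CPM). Its log2 ratio was 1.57 ± 0.46 (SE, adjusted p = 0.0281), or 2.96-fold. Orm2 was at 69.4, 78.8, 79.7, 64.6, 25.9 and 10.9 CPM with NAMPT and between 12.3 and 55.1 CPM with EV, a log2 ratio of 1.07 ± 0.36 (SE, adjusted p = 0.0482), or 2.09-fold. For both genes 4 NAMPT livers lay above all EV livers and 1 lay below all of them, so the groups overlapped.

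Orm1 had the smallest of the 4 called differences. It was between 530 and 689 CPM in WD WT NAMPT (median 589 CPM) and between 441 and 557 CPM in WD WT EV (median 520 CPM), and all 6 NAMPT livers were above the EV median. Its log2 ratio was 0.26 ± 0.08 (SE, adjusted p = 0.0418), or 1.20-fold. Lcn2 reached 237, 340, 134, 117, 44.6 and 4.85 CPM, the widest spread of all genes described here, and had a log2 ratio of 1.55 ± 0.59 (SE, adjusted p = 0.0774). Saa2 (1.22 ± 0.49, adjusted p = 0.0948) and Hp (0.61 ± 0.22, adjusted p = 0.0663) were likewise above zero without passing. Crp had a value below zero, -0.31 ± 0.12 (SE, adjusted p = 0.0789), with 4 of 6 NAMPT livers below every EV liver and 1, replicate 6 at 310 CPM, above every EV liver. Saa4, at 0.02 ± 0.17, and Apcs, at -0.05 ± 0.19 (SE), were near zero and changed sign between settings.

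**Figure D3:**
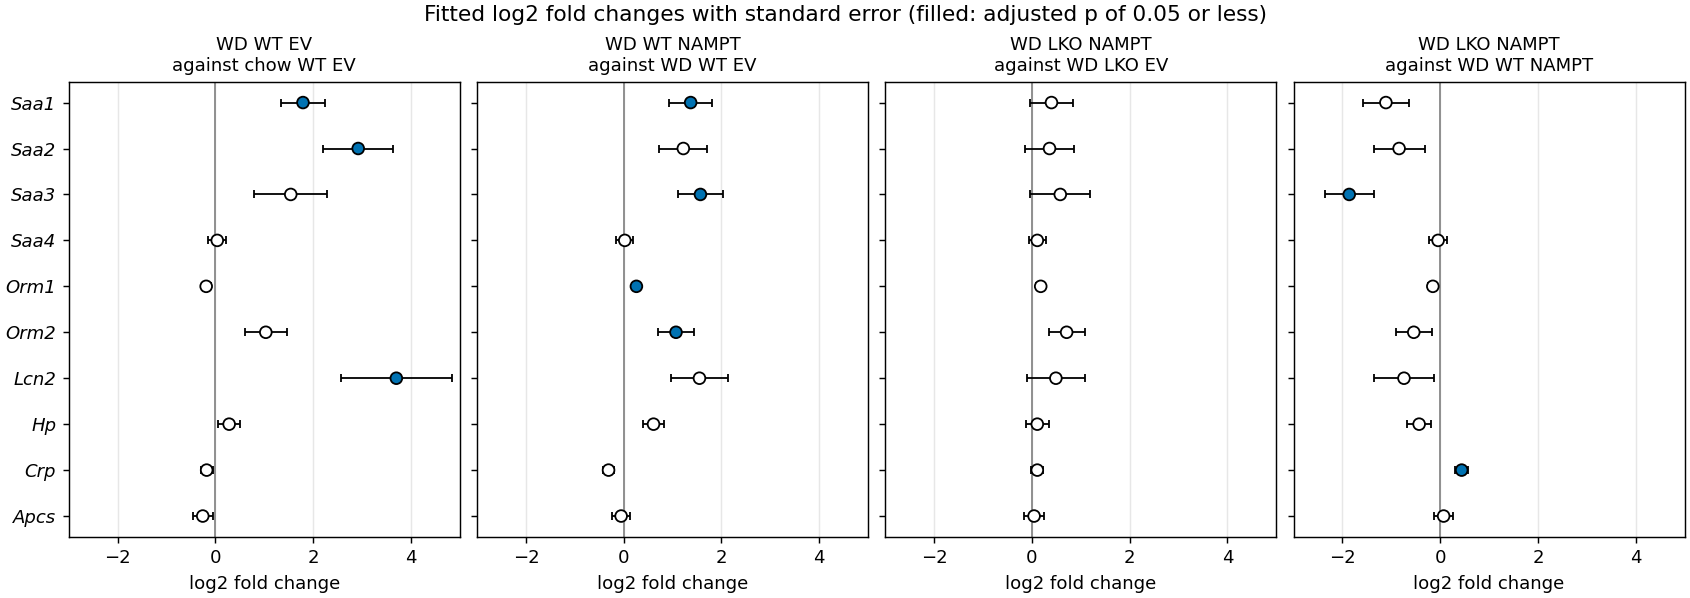
Points are fitted log2 fold changes of the 10 genes and bars are their standard errors, in 4 comparisons named above the panels; filled points have an adjusted p of 0.05 or less. WD against chow and NAMPT against EV in WT shift Saa1, Saa2, Saa3, Orm2 and Lcn2 to the right, while 0 of 10 points are filled for NAMPT against EV in the libraries labelled LKO.

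These calls depended on the fit and on single livers. Of the 10 genes, 0 were called by DESeq2 and by both edgeR tests, quasi-likelihood and exact (6 at an unadjusted p under 0.05 in each), and 0 by limma without sample quality weights (2 at an unadjusted p under 0.05). Without WD WT NAMPT replicate 6, 8 were called: Saa1, Saa2, Saa3, Orm1, Orm2, Lcn2 and Hp higher and Crp lower. Saa1 then had a log2 ratio of 1.62 (adjusted p = 0.00892), Lcn2 1.90 (0.0124), Saa3 1.83 (0.00207) and Crp -0.35 (0.0369). The share of all genes called moved with these counts: it was 20.2% without replicate 6, 3.04%, 6.11% and 8.49% in the quasi-likelihood, exact and DESeq2 tests, and 1.37% without sample quality weights, beside 13.4% in the reported fit. Leaving out WD WT NAMPT replicate 5, WD WT EV replicate 1 or WD WT EV replicate 4 gave 7 calls each. In contrast, 0 were called without WD WT NAMPT replicate 1, 2 or 3 or without WD WT EV replicate 2 or 6 (6 to 8 at an unadjusted p under 0.05), 1 without WD WT EV replicate 7, and 2 without WD WT NAMPT replicate 4 or WD WT EV replicate 8, where 10.3%, 12.3% and 11.7% of all genes were called. The share of all genes called was between 15.6% and 19.9% in the fits with 7 calls and between 0.94% and 8.92% in those with 0. Log2 ratios of Saa1 in these fits ran from 1.08 to 1.66.

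**Figure D4:**
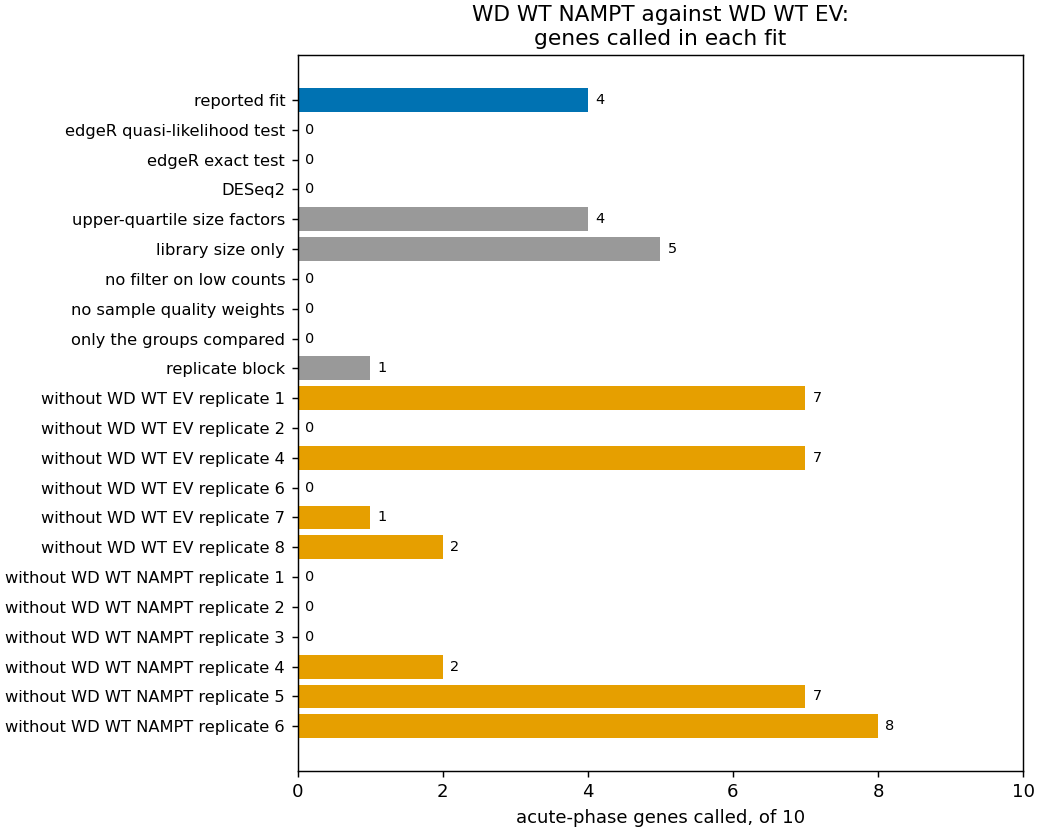
Bars give how many of the 10 genes were called for WD WT NAMPT against WD WT EV in the reported fit (blue), under other processing (grey) and with 1 library left out (orange). The count runs from 0 to 8, and is highest without WD WT NAMPT replicate 6.

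In the livers labelled LKO, the NAMPT vector gave no call among these genes. Saa1 was at 152, 81.0, 44.8, 142 and 134 CPM in WD LKO NAMPT and at 158, 77.2, 110, 32.9 and 61.6 CPM in WD LKO EV, and the groups overlapped throughout. Its log2 ratio was 0.40 ± 0.44 (SE, adjusted p = 0.81), with a 95% interval from -0.46 to 1.26. The 10 values ran from 0.04 (Apcs) to 0.71 (Orm2, adjusted p = 0.561), with a median of 0.27 against 0.016 over all genes. Limma called 0 of 10 (1 at an unadjusted p under 0.05, Orm1), beside 0.00711% of all genes, and both edgeR tests (0 at an unadjusted p under 0.05) and DESeq2 (1) also called 0. Orm2 was between 32.9 and 60.4 CPM in WD LKO NAMPT and between 13.8 and 53.4 CPM in WD LKO EV.

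Whether the NAMPT effect differed between the genotypes was tested as an interaction, the effect in LKO minus the effect in WT. No gene of the 10 was called by limma, the edgeR quasi-likelihood test or DESeq2 (1 at an unadjusted p under 0.05 by limma, Crp, and 0 by the other tests), beside 0.00711% of all genes. The interaction was -0.98 ± 0.62 (SE, adjusted p = 0.364) for Saa1, with a 95% interval from -2.19 to 0.238, so neither an equal response nor the loss of the whole WT response of 1.37 is outside it. Values ran from -1.06 ± 0.84 (SE, Lcn2) to 0.42 ± 0.17 (SE, Crp, adjusted p = 0.165), and 7 of 10 were below zero, of which Orm2 changed sign without sample quality weights and with the replicate number as a block. Without WD WT NAMPT replicate 6, 0 were called and 4 had an unadjusted p under 0.05, while 4.53% of all genes were called.

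Between the genotypes under the NAMPT vector, Saa3 was lower and Crp was higher in WD LKO NAMPT than in WD WT NAMPT. Saa3 was at 9.04, 5.75, 4.49, 5.67 and 7.77 CPM in the livers labelled LKO, below 5 of the 6 WT livers, and the log2 ratio was -1.86 ± 0.50 (SE, adjusted p = 0.0304), or 3.64-fold lower. Crp was at 218.5, 298, 343, 271 and 341 CPM in LKO and between 151 and 310 CPM in WT (median 209.7 CPM), a log2 ratio of 0.44 ± 0.13 (SE, adjusted p = 0.0348), and the groups overlapped for both genes. These 2 of 10 calls stand beside 7.96% of all genes. Saa1 had a value of -1.11 ± 0.47 (SE, adjusted p = 0.117) and was called only without WD WT NAMPT replicate 6, along with Saa3 and Crp. The edgeR exact test and DESeq2 called Saa3 alone, and the edgeR quasi-likelihood test and limma without sample quality weights called 0 (3 and 2 at an unadjusted p under 0.05), where 1.26%, 2.09%, 0.32% and 0.27% of all genes were called. Over all genes, 588 were called higher and 532 lower as reported, 345 and 713 with upper-quartile scaling, and 204 and 636 with library size only, where Saa3 alone of the 10 was called. Without WD WT NAMPT replicate 2 or 3, or WD LKO NAMPT replicate 2, 3 or 5, 0 were called, and without WD WT NAMPT replicate 4 only Saa3 was. Of all genes, at most 1.42% were called in the 5 fits with 0, and 0 genes in all without WD LKO NAMPT replicate 2, so these zeros say nothing particular about the 10 genes. Without WD WT NAMPT replicate 6 the share of all genes was 16.3%. Beside the 3.78% of all genes that were called lower in WD LKO NAMPT, 2 of 9 Kupffer cell and macrophage markers (Marco, -2.14, and Csf1r, -0.56), 1 of 8 recruited macrophage markers (Itgam, -1.27), 1 of 7 neutrophil markers (Csf3r, -1.31), 1 of 7 stellate cell markers (Pdgfrb, -0.61) and 1 of 5 cholangiocyte markers (Sox9, -1.44) were called lower. So was 1 of 8 hepatocyte markers (Tat, -0.74). Limma called 0 of 6 lymphocyte, 0 of 6 endothelial (median 0.10) and 0 of 1 tested adipocyte markers (0, 1 and 0 at an unadjusted p under 0.05, and 0 called by edgeR's quasi-likelihood test). Adipocyte markers summed to a median of 25.1 CPM in WD LKO NAMPT and 2.82 CPM in WD WT NAMPT. With WD WT NAMPT replicate 6 left out, 5 of 9 Kupffer cell and macrophage, 6 of 8 recruited macrophage, 3 of 7 neutrophil and 4 of 7 stellate cell markers were called, all lower. None of the marker calls held without WD LKO NAMPT replicate 2, where 0 of all genes were called. Without WD LKO NAMPT replicate 5 and by the quasi-likelihood test, 0.0142% and 0.32% of all genes were called. The part of the cells behind these markers in the Saa3 and Crp differences was not tested. The other values were -0.84 for Saa2, -0.74 for Lcn2, -0.54 for Orm2, -0.43 for Hp, -0.15 for Orm1, -0.04 for Saa4 and 0.07 for Apcs, with adjusted p between 0.23 and 0.898.

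With the empty vector, the genotypes did not differ detectably in these genes. Limma called 0 of 10 (0 at an unadjusted p under 0.05), beside 0.00711% of all genes, as did the other tests. The values ran from -0.87 ± 0.58 (SE, Saa3, adjusted p = 0.897) to 0.31 ± 0.57 (SE, Lcn2, adjusted p = 0.99), with Saa1 at -0.14 ± 0.41 (SE) and a median of -0.05. Across the 5 groups, mean Saa1 therefore ordered as chow WT EV (29.2 ± 11.9 CPM, n = 3), WD LKO EV (88.0 ± 48.1 CPM, n = 5), WD WT EV (104 ± 57.7 CPM, n = 6), WD LKO NAMPT (111 ± 45.9 CPM, n = 5) and WD WT NAMPT (238 ± 134 CPM, n = 6), where the errors are SD. The 3 middle groups lay within their spread of each other.

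Livers of the same group differed together in most of these genes. Deviations from the group mean on the log2(CPM + 0.5) scale were compared with those of Saa1 over all 25 libraries, and p-values come from 100000 permutations within groups, adjusted over 9 relations. Saa2 followed Saa1 most closely, with Pearson r = 0.96 and Spearman rho = 0.96 (permutation p = 1e-05 for both, the smallest these permutations can give, adjusted p = 4.5e-05 and 3e-05). Lcn2 had r = 0.89 and rho = 0.89 (permutation p = 2e-05 and 1e-05, adjusted 6e-05 and 3e-05), Orm2 r = 0.87 and rho = 0.86 (permutation p = 1e-05 for both, adjusted 4.5e-05 and 3e-05), and Saa3 r = 0.81 and rho = 0.79 (permutation p = 0.00022 and 0.00015, adjusted 0.000495 and 0.000337). Hp had r = 0.70 and rho = 0.53 (permutation p = 0.00179 and 0.0196, adjusted 0.00322 and 0.0294) and Orm1 r = 0.61 and rho = 0.59 (permutation p = 0.005 and 0.00803, adjusted 0.0075 and 0.0144).

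Crp went the other way, with r = -0.51 and rho = -0.44 (permutation p = 0.0372 and 0.05, adjusted 0.0478 and 0.0643), so only its Pearson value passed. Saa4 (r = -0.43, rho = -0.35) and Apcs (r = 0.23, rho = 0.22) did not pass, with permutation p of 0.067 and 0.114 for Saa4 and of 0.381 and 0.357 for Apcs (adjusted 0.0753, 0.129, 0.381 and 0.357). Without the 2 libraries farthest from the median, WD WT NAMPT replicate 6 and WD WT EV replicate 6, r was 0.95 for Saa2, 0.83 for Lcn2, 0.81 for Orm2, 0.63 for Saa3, 0.51 for Hp and Orm1, and -0.32 for Crp. All genes come from the same libraries and share their scaling, and with scaling by library size alone the relation with Crp had a permutation p of 0.283.

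**Figure D5:**
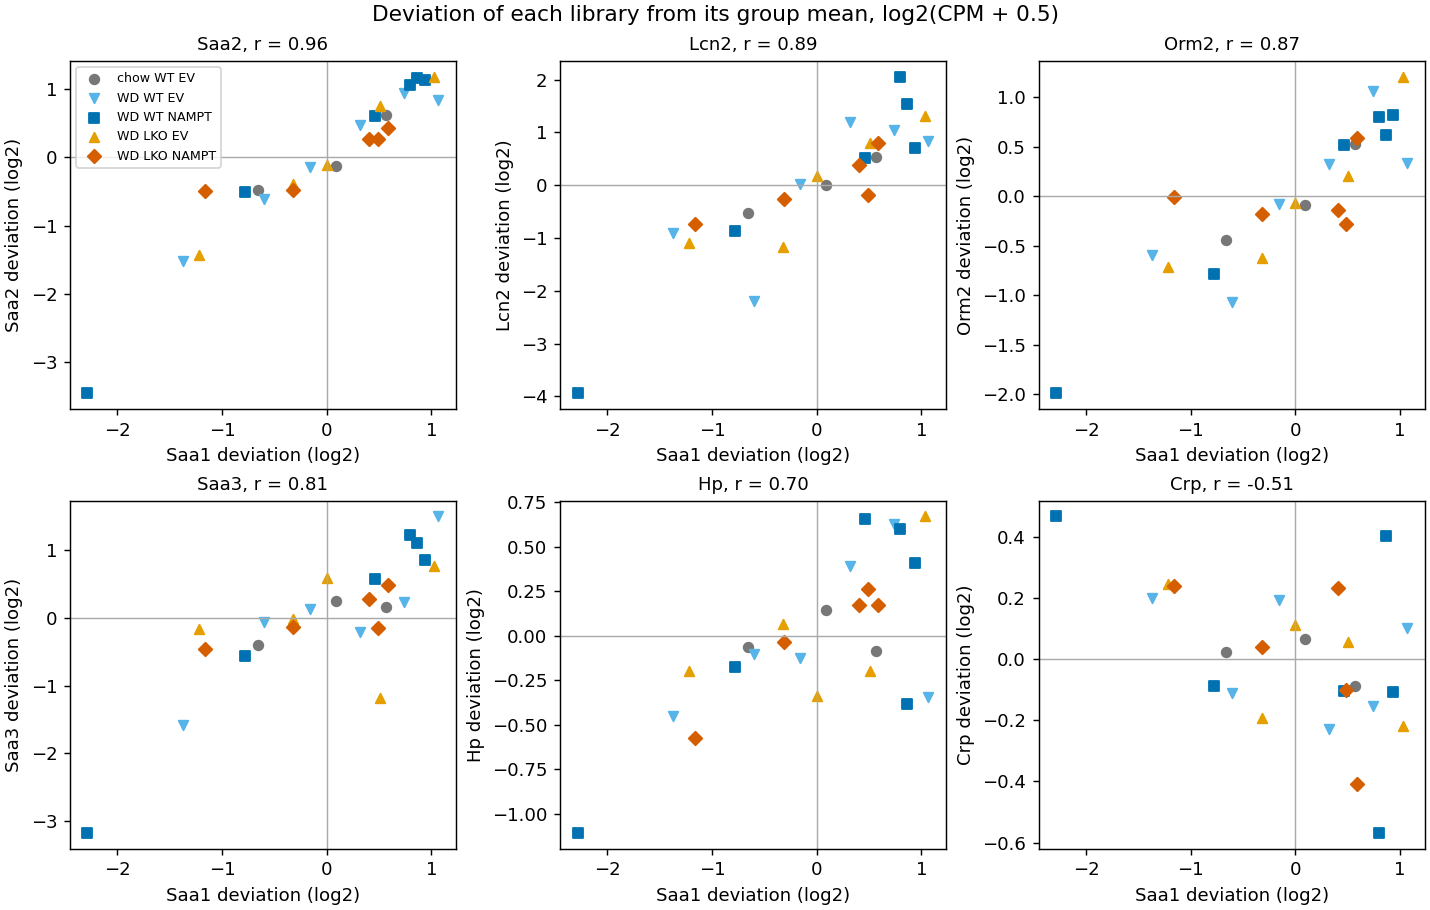
Each point is 1 library, plotted as its deviation from its group mean in log2(CPM + 0.5), with Saa1 on the horizontal axis and another gene on the vertical axis; colours and shapes give the group and r is Pearson's. Saa2, Lcn2, Orm2 and Saa3 rise with Saa1 from the lowest point, WD WT NAMPT replicate 6, upward, Hp does so more loosely, and Crp slopes down with wide scatter.

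Genes outside the 10 whose log2(CPM + 0.5) followed them most closely over the 25 libraries are given as a description, without a test, and group differences are part of these values. For Saa1 they were Sh3bp1 (r = 0.938), Fermt3 (r = 0.935), Cd5l (r = 0.934), Itgb2 (r = 0.932) and Slc15a3 (r = 0.932). Cd5l encodes a protein secreted by macrophages, and Itgb2 and Fermt3 encode a leukocyte integrin chain and an integrin activator of blood cells. Mmp12, macrophage elastase, was closest to both Lcn2 (r = 0.970) and Saa2 (r = 0.920), and ranged from 0.108 to 85.4 CPM. Sema4d was closest to Saa3 (r = 0.880), the basement membrane collagen gene Col4a1 to Orm2 (r = 0.923), the nuclear lamin gene Lmna to Hp (r = 0.891) and the casein kinase gene Csnk2a1 to Crp (r = 0.925). For Orm1, Saa4 and Apcs the closest were Rps6kc1 (r = 0.777), Slc9a3r1 (r = 0.751) and Cxadr (r = 0.715).

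Other positive acute-phase genes were called in both directions with the NAMPT vector in WT liver. Of 25 other positive acute-phase genes tested, 5 were called higher and 2 lower, beside 7.67% and 5.77% of all genes, with a median log2 ratio of 0.21, and without WD WT NAMPT replicate 6 the list had 10 calls, beside 20.2% of all genes, while edgeR's quasi-likelihood test called 0 and DESeq2 5, beside 3.04% and 8.49% of all genes. Il1rn, the interleukin 1 receptor antagonist, had a log2 ratio of 1.42 ± 0.48 (SE, adjusted p = 0.0482), the endotoxin co-receptor Cd14 1.18 ± 0.38 (adjusted p = 0.0418), the haem carrier Hpx 0.78 ± 0.19 (adjusted p = 0.0137) and the serpin Serpina3m -0.65 ± 0.16 (adjusted p = 0.0153). Of 12 negative acute-phase genes, which hepatocytes make less of during inflammation, 1 was called, Rbp4, the retinol carrier, at -0.39 ± 0.12 (SE, adjusted p = 0.0284), and 3 were without WD WT NAMPT replicate 6. In the WD WT EV against chow comparison, 4 of the 25 were called higher and 6 lower, and 4 of the 12 negative genes were called, all lower (Fetub, Igf1, Ahsg and Serpinc1), beside 10.1% of all genes called higher and 12% called lower. Orm3, another orosomucoid gene, had a log2 ratio of 2.69 ± 0.54 (SE, adjusted p = 0.00106) there, whereas the complement gene C3 (-0.85 ± 0.17, adjusted p = 0.00094) and Itih3 (-0.84 ± 0.14, adjusted p = 0.000212) were lower. Without chow replicate 1 or 2, only 6.89% or 5.95% of all genes were called for WD WT EV against chow.

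Of 21 inducing cytokines and receptors, 16 passed the filter on low counts, and 4 were called with NAMPT in WT liver, all higher, beside 7.67% of all genes called higher. Tnf had a log2 ratio of 1.82 ± 0.44 (SE, adjusted p = 0.0137), the receptor gene Tlr2 1.21 ± 0.27 (adjusted p = 0.0122), Il1b 1.13 ± 0.31 (adjusted p = 0.0212) and the adaptor gene Myd88 0.37 ± 0.10 (adjusted p = 0.0187). Tnf remained a rare transcript, at 0.505 ± 0.213 CPM with EV and 1.82 ± 1.1 CPM with NAMPT (SD, n = 6 each). Il6 itself had at most 4 counts in any library and 0 in all WD WT EV, WD LKO EV and WD LKO NAMPT libraries, so the ligand could not be followed at this depth. Of 24 transcription factors and regulators of the response, 6 were called higher. Socs1, a feedback inhibitor of JAK and STAT signalling, was at 1.69 ± 0.719 CPM with NAMPT and 0.836 ± 0.39 CPM with EV (SD, n = 6 each, adjusted p = 0.0431). Others were the NF-kB subunit genes Relb (1.20 ± 0.24, adjusted p = 0.00759) and Nfkb2 (0.71 ± 0.19, adjusted p = 0.0173) and the gene of the nuclear NF-kB cofactor Nfkbiz (0.43 ± 0.14, adjusted p = 0.0417). In WD LKO NAMPT against WD WT NAMPT, 3 of the 16 and 5 of the 24 were called, all lower, beside 3.78% of all genes called lower, including Tnf (-1.46 ± 0.42, adjusted p = 0.0378), Il1b (-1.22 ± 0.33, adjusted p = 0.0292) Socs1 (-1.31 ± 0.37, adjusted p = 0.0352) and Relb (-0.91 ± 0.23, adjusted p = 0.0251). These counts were 5 and 6 without WD WT NAMPT replicate 6, all lower, beside 16.3% of all genes. None of these calls held without WD LKO NAMPT replicate 2, where 0 of all genes were called. The quasi-likelihood test called 0.32% of all genes in this comparison. On WD against chow, 3 of the 16 (2 higher, 1 lower) and 5 of the 24 (3 higher, 2 lower) were called, beside 22% of all genes. Cebpb, a C/EBP factor of the response, was higher by 1.02 ± 0.20 (SE, adjusted p = 0.000983), and Lifr, a receptor chain of the interleukin 6 family, was lower (-1.27 ± 0.22, adjusted p = 0.000308). The TNF receptor genes Tnfrsf1b (0.59 ± 0.09) and Tnfrsf1a (0.31 ± 0.07) were higher (adjusted p = 9.64e-05 and 0.00309). Against WD WT EV, the calls without WD WT NAMPT replicate 6 numbered 5 of 16 and 7 of 24, beside 20.2% of all genes, and edgeR's quasi-likelihood test called 2 and 1, beside 3.04% of all genes.

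Markers of other cells moved with these genes between the WT groups, where 13.4% of all genes were called (20.2% without WD WT NAMPT replicate 6). Of 8 recruited macrophage markers, 4 were called higher with NAMPT (Itgax, Trem2, Cx3cr1 and Itgam, median of the list 1.87), and their sum ranged from 12.2 to 245 CPM in WD WT NAMPT, 13.4 to 63.1 CPM in WD WT EV, 16.7 to 54.98 CPM in WD LKO EV, 28.1 to 130 CPM in WD LKO NAMPT and 13.6 to 19.7 CPM in chow WT EV. Of 9 Kupffer cell and macrophage markers 5 were called higher, with sums of 302 to 815 CPM in WD WT NAMPT and 324 to 461 CPM in WD WT EV. Of 12 neutrophil markers 7 were tested and 2, S100a9 and Csf3r, were called higher, and the sums were 4.36 to 30.9 CPM against 2.98 to 9.91 CPM, with the defining marker Ly6g at 0 counts in all WD WT EV and chow libraries. Stellate cell markers had 4 of 7 called higher, with sums of 295 to 726 CPM against 290 to 481 CPM. WD WT NAMPT replicate 6 had the lowest sum of its group for the recruited macrophage, Kupffer cell and macrophage, neutrophil and stellate lists. Of the hepatocyte markers 1 of 8 was called, Asgr1, lower, and 0 of 6 lymphocyte, 0 of 5 cholangiocyte and 0 of 1 tested adipocyte markers were, while 1 of 6 endothelial markers was called higher and 1 lower. Without that library, the calls were 8 of 8 recruited macrophage, 6 of 9 Kupffer cell and macrophage, 3 of 7 neutrophil and 4 of 7 stellate cell markers. By edgeR's quasi-likelihood test they were 1, 4, 1 and 1 (3.04% of all genes). Without WD WT NAMPT replicate 3 they were 0, 0, 0 and 1 (0.94%), with 6, 6, 6 and 4 at an unadjusted p under 0.05. In limma without sample quality weights they were 0 in each list (1.37%), with 4, 8, 3 and 3 at an unadjusted p under 0.05. Between chow and WD WT EV, 1 of 8 recruited macrophage markers (Ly6c2), 2 of 9 Kupffer cell and macrophage markers (Cd5l and Cd68), 2 of 7 stellate cell markers (Col3a1, 1.11, and Lrat, 0.54) and 1 of 6 lymphocyte markers (Nkg7) were called higher, 1 of 6 endothelial markers was higher and 1 lower, and 0 of 7 neutrophil, 0 of 5 cholangiocyte and 0 of 1 tested adipocyte markers were called, beside 22% of all genes. Hepatocyte markers moved with the diet as well: 3 of 8 were called, all lower, Cyp3a11 at -2.21, Cps1 at -1.22 and Tat at -0.95, and the 8 genes summed to between 71130 and 84660 CPM on chow and between 51670 and 68580 CPM in WD WT EV. The 5 adipocyte markers summed to between 0.165 and 0.197 CPM on chow and between 1.06 and 61.4 CPM in WD WT EV, between 0.153 and 75.3 CPM in WD WT NAMPT, between 2.17 and 17.5 CPM in WD LKO EV and between 0.838 and 60.8 CPM in WD LKO NAMPT. The part that these cells had in the levels of Saa3, Lcn2 and the other genes was not tested.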

How the data were processed

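The deposited files held counts per gene, which the authors made from single-end reads of poly-A selected liver RNA with STAR 2.5.1a and featureCounts 1.4.6-p5 on GRCm38 (versions as in the submitters' processing notes, where the study's methods give others), keeping uniquely aligned, unambiguous reads. Use of the read strand is not stated. CPM and RPKM values were deposited by the authors beside the counts and equalled those recomputed from them within 5.9e-14, so only counts were used. Groups came from sample titles, which name the insert as NAMPT, although the treatment label shared by all libraries calls it SIRT1. No batch is given, and replicates are separate mice.

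Genes above 1 CPM in at least 2 libraries were kept (14065, without 4 ribosomal RNA genes). Counts were TMM-scaled (edgeR 4.0.16) and fitted with limma 3.58.1 voomWithQualityWeights in R 4.3.3, 1 mean per group, all 25 libraries. Adjusted p-values are limma's with Benjamini-Hochberg adjustment over all genes kept, called at 0.05 or less. All 10 genes passed the filter. DESeq2 1.42.0 and edgeR tests were alternatives. The fit was first tested on simulated data. From each other gene list, at most 4 called genes with the largest changes were named. Genes and lists were chosen with earlier results of these data known.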

Additional observations from a re-analysis of the deposited data

Results flagged for a closer look

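Levels of the 10 genes were searched for single livers far from the rest of their group in 40 combinations of gene and WD group, of which chance marks about 1 in 20, and 2 were marked. Saa3 in WD WT EV replicate 8 was at 23.4 CPM, beside 9.47 CPM in the next liver of its group. Orm2 in WD LKO NAMPT replicate 1 was at 60.4 CPM, beside 39.7 CPM in the next. WD WT NAMPT replicate 6 was not marked for any of the 10 genes, but the search used CPM, where low livers stand out less than on a log scale. The chow group of 3 livers was not searched.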

How the results depend on the processing

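The number of the 10 genes called was recomputed in 53 alternative fits over the 6 comparisons and with each library left out. For WD WT NAMPT against WD WT EV, 4 of 10 were called in the reported fit, 4 with upper-quartile scaling, 5 with library size only, 1 with the replicate number as a block (12.9%, 16.2% and 6.29% of all genes, beside 13.4%), and 0 with edgeR's quasi-likelihood or exact test, DESeq2, no filter on low counts, no sample quality weights, or only the groups compared (3.04%, 6.11%, 8.49%, 1.8%, 1.37% and 5.85%). Leaving out 1 library gave 0 to 8. For WD LKO NAMPT against WD WT NAMPT, 2 became 1 with the exact test, DESeq2, library size only or the block (1.26%, 2.09%, 5.97% and 2.93% of all genes, beside 7.96%), and 0 with the quasi-likelihood test, no filter, no weights or only the groups compared (0.32%, 0.412%, 0.27% and 0.095%), and ran from 0 to 3 with 1 library left out. For WD WT EV against chow, 3 became 1 without the filter, 0 without weights (4 at an unadjusted p under 0.05) and 5 with the block (6.77%, 8.54% and 27.3% of all genes, beside 22%), and ran from 0 to 4 with 1 library left out. In the other 3 comparisons the count was 0 in every fit run. Where not due to a smaller set of genes or samples, the cause was not tested. Same-numbered mice deviated together in some pairs and not in others (correlations over genes from -0.198 to 0.373 for WD WT EV with WD WT NAMPT and from -0.343 to 0.384 for WD WT EV with WD LKO EV), and in no comparison did every pair exceed 0.1, so the paired fits rest on a number alone.

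Over the 10 genes and 6 comparisons, the sign of the log2 ratio differed from the reported one in 38 of 530 alternative values and in 52 of 750 with a library left out. Among the 39 of these 60 ratios examined singly it did so in 20 and 24. For WD WT NAMPT against WD WT EV, Saa4 was -0.0208 (quasi-likelihood), -0.0207 (exact), -0.0243 (DESeq2) and -0.0182 (no filter), and Apcs was 0.0938, 0.0934, 0.0925 and 0.000709 in these and 0.087 with library size only and 0.0587 without weights. For WD LKO NAMPT against WD WT NAMPT, Saa4 was 0.00622 without weights and 0.0465 with the block, and Apcs was -0.0564 (quasi-likelihood), -0.0555 (exact), -0.0601 (DESeq2) and -0.0298 (library size only). With the block, Lcn2 was -0.346 for WD LKO EV against WD WT EV, and for WD WT EV against chow Saa4 was -0.429 and Apcs 0.0303, while library size only gave -0.0135 for Saa4. Among the other ratios, the block gave -0.454 for Saa2, 0.268 for Saa4 and -0.242 for Hp in WD LKO EV against WD WT EV, and in the interaction 0.122 for Orm2, which was 0.0103 without weights. With 1 library left out, Saa4 ran from -0.0788 to 0.133 (WT NAMPT), -0.169 to 0.132 (LKO NAMPT against WT NAMPT) and -0.0738 to 0.307 (chow comparison), Apcs from -0.196 to 0.118 (WT NAMPT), -0.0738 to 0.157 (LKO NAMPT against LKO EV) and -0.1 to 0.169 (LKO NAMPT against WT NAMPT), and for LKO EV against WT EV Lcn2 ran from -0.0271 to 0.636 and Saa1 from -0.418 to 0.145. For WD WT EV against chow, 1414 of all genes were called higher and 1687 lower as reported and 1053 and 2175 with library size only. Library size only put the median of all genes at 0.156 for WD WT NAMPT against WD WT EV, at -0.119 for WD LKO NAMPT against WD WT NAMPT and at -0.153 for the interaction.

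Of 18 alternative correlations 17 kept their direction and side of the threshold, the exception being Crp with library size only, and all 100 alternative group means moved by less than 1 SD. At 29 counts or more, counting error is small beside the spread between mice.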
